A study of Mus musculus with 22 samples.

Results

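The megabase of mouse chromosome 15 that holds Myo10, from 25000000 to 26000000 (mm9), was examined in ATAC-seq peaks of retinal endothelial cells. Its members were all peaks with their midpoint in that interval: 54 peaks in the gTKO list and 100 peaks in the control list, of 49558 and 57267 peaks on placed chromosomes. ATAC-seq uses the Tn5 transposase to cut and tag accessible DNA, and a peak is a stretch where such cuts were called as concentrated. gTKO pups were S1pr3-/- with S1pr1flox/flox and S1pr2flox/flox alleles and carried Rosa26-CreERT2, a tamoxifen-dependent recombinase expressed from a locus that is active in most cell types, so the deletion is not limited to endothelium. Control pups had the same S1pr3-/- S1pr1flox/flox S1pr2flox/flox genotype without the recombinase, so S1pr3 was missing in both. Both genotypes were C57BL/6, received 100 µg tamoxifen by injection between postnatal days 1 and 3, and were sampled at postnatal day 6, although the cell type label calls the cells adult. S1pr1, S1pr2 and S1pr3 encode receptors for sphingosine 1-phosphate, a circulating lipid. There were 3 libraries per genotype, each from the pooled retinas of several pups, and their labels name 1 peak list per genotype.

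Myo10 encodes myosin X, an unconventional myosin that walks along actin bundles and gathers at the tips of filopodia, the thin protrusions with which cells probe their surroundings. Its tail binds phosphoinositide lipids of the plasma membrane and the cytoplasmic part of integrins, and it promotes the formation of filopodia. In the retina of newborn mice, vessels grow outward behind endothelial tip cells that carry many filopodia. In the GRCm38.p6 annotation of RefSeq, Myo10 (gene ID 17909) is 191 kb long. Its protein-coding neighbours there are Basp1, a membrane-attached protein of neuronal growth cones, on the side before its start, and Retreg1, a receptor for the autophagy of endoplasmic reticulum, followed by Zfp622, on the side past its end.

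RefSeq lists 2 starts for Myo10, both on the plus strand and 131 kb apart. The 250 bases before each are shown because they precede the sites at which transcription of this gene begins. They are from GRCm38.p6, chr15:25622300-25622549 for the first start and chr15:25752956-25753205 for the second. These positions belong to a later build than the mm9 peaks and were not matched to them. Capitals mark a GC box (GGGCGG) in the first and a TATA box (TATAAA) in the second, both searched on either strand.
Myo10 start 1: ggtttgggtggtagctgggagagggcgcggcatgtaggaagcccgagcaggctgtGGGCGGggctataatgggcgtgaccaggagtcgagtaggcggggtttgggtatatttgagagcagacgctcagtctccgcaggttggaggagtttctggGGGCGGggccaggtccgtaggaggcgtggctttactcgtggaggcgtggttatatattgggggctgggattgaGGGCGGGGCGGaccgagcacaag
Myo10 start 2: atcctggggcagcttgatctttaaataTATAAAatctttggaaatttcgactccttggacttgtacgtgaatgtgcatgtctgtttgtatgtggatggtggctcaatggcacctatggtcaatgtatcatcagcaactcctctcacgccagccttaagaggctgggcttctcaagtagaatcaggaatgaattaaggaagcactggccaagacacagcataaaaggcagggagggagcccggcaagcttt
The sequence before start 1 was 62.8% G or C with 17 CpG dinucleotides, and the sequence before start 2 was 46.0% G or C with 4, against medians of 52.4% and 6 over 32851 promoter sequences of the same length. Start 1 had 4 GC boxes, of which the last 2 share a base, and 32.7% of all promoter sequences had at least 1. Start 2 had no GC box and 1 TATA box, whose first base lies 223 bases before the start, and 12.4% of all promoter sequences had a TATA box. Neither sequence held the AP-1 letters TGANTCA on either strand, which 6.75% of all promoter sequences held. AP-1 is the transcription factor family named in the title of the study, and the absence of these letters covers these 250-base windows only.

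The interval was chosen by position with earlier results of these lists known, so its counts are a description and no test was made between the genotypes. Each genotype has a single list, so there is no replicate error, and the depth of the libraries is unknown. Intervals are at the 95% level by the exact Clopper-Pearson method and reflect the counting of peaks alone, with peaks taken as independent. A list made from fewer reads can hold fewer and narrower peaks, and the part of depth in the differences below was not tested. The lists give positions without scores or gene names, and neither the loss of the receptor genes nor endothelial markers were checked here. Peak positions are on chromosome 15 in mm9. The Myo10 span was taken as 25.5 to 25.8 Mb, an approximate placement of the gene that was not checked against an mm9 annotation, so no peak is assigned to an exon, intron or promoter. At 300.0 kb it is longer than the gene and so includes sequence beside it.

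Across the megabase, fewer stretches were called in gTKO cells, and most of the peaks found in a single list were control peaks. The gTKO list covered 21655 bp and the control list 40068 bp, so the covered sequence was 54.0% of control. The same percentage was 77.1% on all placed chromosomes and 74.0% on chromosome 15. Of the gTKO peaks, 6 overlapped no control peak (11.1%, 95% interval 4.19 to 22.6%), near the 9.75% of gTKO peaks that had no partner on all placed chromosomes. Of the control peaks, 55 overlapped no gTKO peak (55.0%, 95% interval 44.7 to 65.0%), against 27.0% on all placed chromosomes. On chromosome 15 as a whole the gTKO-only and control-only shares were 10.2% and 31.3%.

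Most of these peaks lay in the Myo10 span. The span held 36 gTKO peaks covering 14996 bp and 78 control peaks covering 29841 bp, so the gTKO list covered 50.3% of the control sequence. Of its peaks, 4 were gTKO-only (11.1%, 95% interval 3.11 to 26.1%) and 47 control-only (60.3%, 95% interval 48.5 to 71.2%). The other 700.0 kb of the megabase held 18 gTKO peaks covering 6659 bp and 22 control peaks covering 10227 bp, or 65.1% of the control sequence. There, 2 peaks were gTKO-only (11.1%) and 8 control-only (36.4%, 95% interval 17.2 to 59.3%). The intervals of the control-only share inside and outside the span overlap. With a narrower span, from 25.55 to 25.75 Mb, the gTKO list covered 56.8% of the control sequence inside and 51.1% outside, the opposite order. The density of gTKO peaks was 12.0 per 100 kb inside the span and 2.57 outside, and that of control peaks 26.0 inside and 3.14 outside. The part before the span held 16 gTKO and 17 control peaks, with 2 gTKO-only and 4 control-only, and the part after it held 2 gTKO and 5 control peaks, with 0 gTKO-only and 4 control-only. The first peaks inside the span were at 25509802 (gTKO, 267 bp) and 25509717 (control, 327 bp), and the last ended at 25777637 (gTKO, 165 bp) and 25796204 (control, 194 bp). Just before it lay a gTKO peak of 861 bp that ended at 25493931 and a control peak of 169 bp that ended at 25499173. Past it, the next peaks started at 25913674 (gTKO, 1157 bp) and 25830367 (control, 223 bp).

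**Figure D1:**
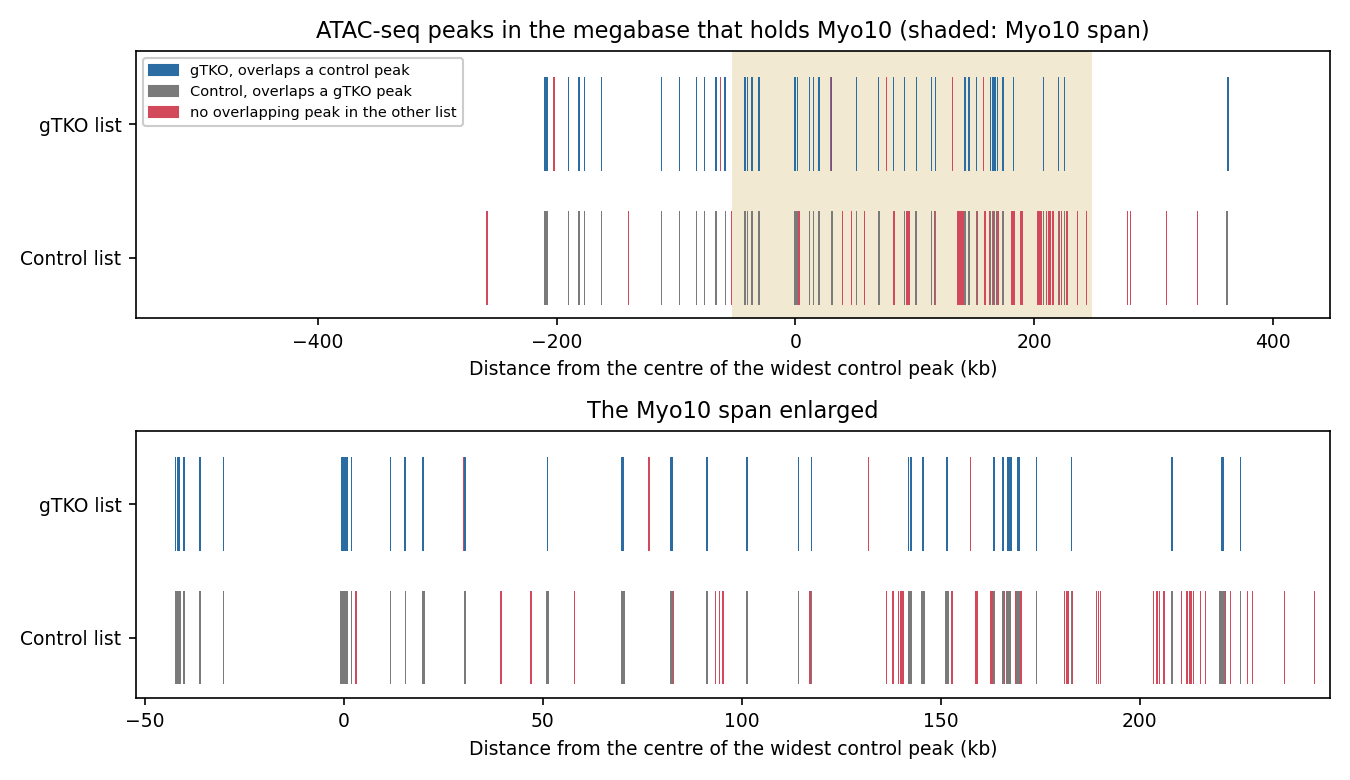
Peaks of the gTKO list (upper row) and the control list (lower row) along the megabase and, enlarged, along the Myo10 span, as distance in kb from the centre of the widest control peak; red marks peaks with no overlapping peak in the other list, and peaks too narrow to see are drawn at a minimum width. The span holds 4 gTKO-only and 47 control-only peaks, and the control-only peaks crowd toward its right end.

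The largest accessible stretch of the megabase was called in both genotypes. It measured 1797 bp in the gTKO list (25551438 to 25553234) and 2082 bp in the control list (25551196 to 25553277). All 4 control peaks and both gTKO peaks of at least 1000 bp in the span had a partner. On all placed chromosomes, 99.5% of control peaks and 100% of gTKO peaks of that width also had one. The second widest gTKO peak, of 1217 bp (25718817 to 25720033), overlapped the control peak of 1285 bp from 25718571 to 25719855 and reached past its end. The gTKO peak of 738 bp (25510177 to 25510914) lay inside a control peak of 1077 bp (25510135 to 25511211). The greatest loss of width among these wide peaks was near the end of the span, where a gTKO peak of 655 bp (25772700 to 25773354) lay inside a control peak of 1564 bp (25772136 to 25773699).

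The other peaks among the 10 widest of either list were likewise called in both genotypes. On all placed chromosomes, 96.3% of control peaks and 99.9% of gTKO peaks from 500 to under 1000 bp also had a partner. In the span, the gTKO peak of 845 bp (25621793 to 25622637) matched a control peak of 999 bp (25621783 to 25622781), and the gTKO peak of 776 bp (25721299 to 25722074) a control peak of 869 bp (25721214 to 25722082). The gTKO peak of 523 bp (25697534 to 25698056) lay inside a control peak of 877 bp (25697300 to 25698176). A control peak of 858 bp (25694112 to 25694969) overlapped 2 gTKO peaks of 150 and 493 bp. The gTKO peak of 648 bp (25634169 to 25634816) was wider than its control partner of 615 bp (25634204 to 25634818). Outside the span, the control peak of 1466 bp (25913494 to 25914959) overlapped 2 gTKO peaks, the wider of 1157 bp (25913674 to 25914830). The gTKO peak of 663 bp (25341908 to 25342570) lay inside a control peak of 1094 bp (25341892 to 25342985), and the gTKO peak of 861 bp (25493071 to 25493931) overlapped a control peak of 832 bp (25493151 to 25493982).

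Where a peak matched a single peak of the other list, it was mostly narrower in gTKO, as elsewhere in the genome. In the span there were 30 such pairs, and the control peak was the wider in 25 (83.3%, 95% interval 65.3 to 94.4%), the gTKO peak in 4, with 1 pair equal. On all placed chromosomes the control peak was the wider in 79.5% of pairs. The median width within pairs of the span was 296.5 bp in gTKO and 395.5 bp in control, and the median gTKO width was 79.1% of its control partner (quartiles 65.6 and 93.4%), against 86.6% on all placed chromosomes. Outside the span, 8 of 12 control peaks were the wider and the median was 67.1%. In 22 of the 30 pairs the gTKO peak lay wholly inside its control partner, as it did in 23735 of 37878 pairs on all placed chromosomes. The narrowest relative to its partner was the gTKO peak of 173 bp (25603374 to 25603546) inside a control peak of 679 bp (25603052 to 25603730), 25.5% of its width. The opposite extreme was the gTKO peak of 344 bp (25582661 to 25583004), 150% of its control partner of 229 bp (25582760 to 25582988).

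**Figure D2:**
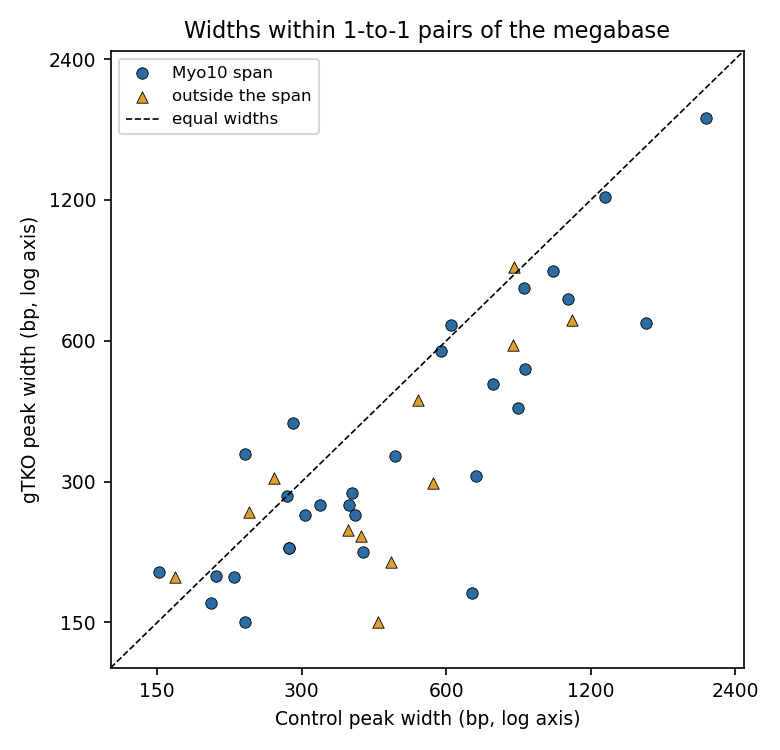
Width of the gTKO peak against width of the control peak in bp, both on log axes, for the 42 pairs of the megabase in which a peak matched a single peak of the other list; circles lie in the Myo10 span and triangles outside it. The gTKO peak is the narrower in 33 pairs, which lie below the dashed line of equal widths.

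The smaller gTKO coverage of the span came more from peaks that had no partner than from narrower partners. The gTKO list covered 14845 bp less than the control list there. Control-only peaks held 11059 bp, which is 74.5% of that difference. Peaks with a partner covered 14030 bp in gTKO and 18782 bp in control, a further 4752 bp or 32.0%, and gTKO-only peaks offset 966 bp. On all placed chromosomes control-only peaks made up 50.3% of the difference and peaks with a partner 63.6%. Outside the span these shares were 49.1% and 60.1%.

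Control-only peaks of the span were found in each of 4 width classes below 1000 bp, the widest at 671 bp. Of the control peaks from 150 to under 200 bp, 26 of 29 were control-only (89.7%, 95% interval 72.6 to 97.8%), against 66.4% of that class on all placed chromosomes. Of those from 200 to under 300 bp, 11 of 18 were control-only (61.1%, 35.7 to 82.7%), against 38.5%. In the class from 300 to under 500 bp the count was 8 of 15 (53.3%, 26.6 to 78.7%), against 19.1%. From 500 to under 1000 bp it was 2 of 12 (16.7%, 2.09 to 48.4%), against 3.65%. For 2 of these 4 classes, those from 150 and from 300 bp, the interval lay above the share for all placed chromosomes, and for the others it included that share. These intervals take peaks as independent, whereas control-only peaks of the span came in runs, so the comparison is not a test. Control peaks of the span were narrower than usual, with a median of 241.5 bp against 359.0 bp on all placed chromosomes. With the shares of all placed chromosomes applied to its widths, the span would have 29.5 control-only peaks (37.8%), and it had 47, or 1.59 times as many. For the gTKO list the same calculation gave 3.92 gTKO-only peaks, and there were 4.

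**Figure D3:**
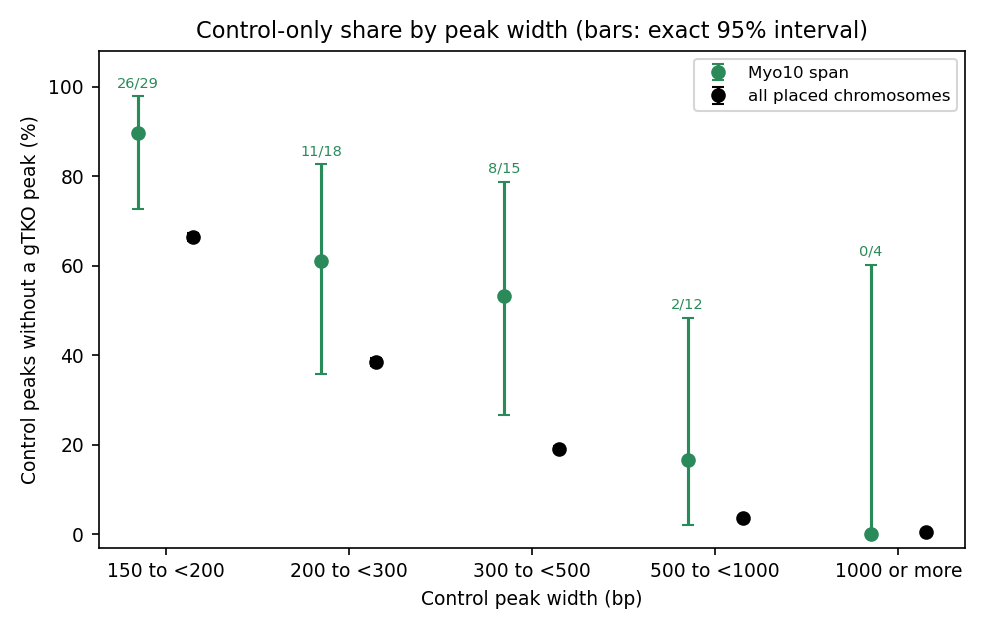
Share of control peaks without a gTKO peak, in percent, by control peak width in bp, for the Myo10 span (left point of each pair, with counts) and all placed chromosomes (right point); bars are exact 95% intervals. The span has the higher share in each class below 1000 bp, from 89.7% in the narrowest to 16.7% in the class from 500 bp, with wide intervals.

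Along the span the lists drew apart toward higher coordinates. In successive steps of 50 kb from its low end, the sequence covered in the gTKO list was 81.2, 75.2, 62.6, 52.7, 44.5 and 16.0% of that in the control list. On all placed chromosomes it was 77.1%, so the first 2 steps were near that level. The control-only peaks in the same steps were 0 of 5, 3 of 10, 5 of 9, 7 of 12, 15 of 22 and 17 of 20 control peaks. gTKO peaks numbered 5, 8, 5, 7, 8 and 3 in these steps, and did not follow the higher numbers of control peaks, 22 and 20, in the last 2 steps. The last step held 3 gTKO peaks covering 1008 bp, against 20 control peaks covering 6295 bp. Step sizes were chosen after the values were seen, and each step holds few peaks. Myo10 is 191 kb long, and its limits in mm9 were not checked. Which of these steps, and of the 100 kb parts below, lie in the gene is therefore unknown.

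**Figure D4:**
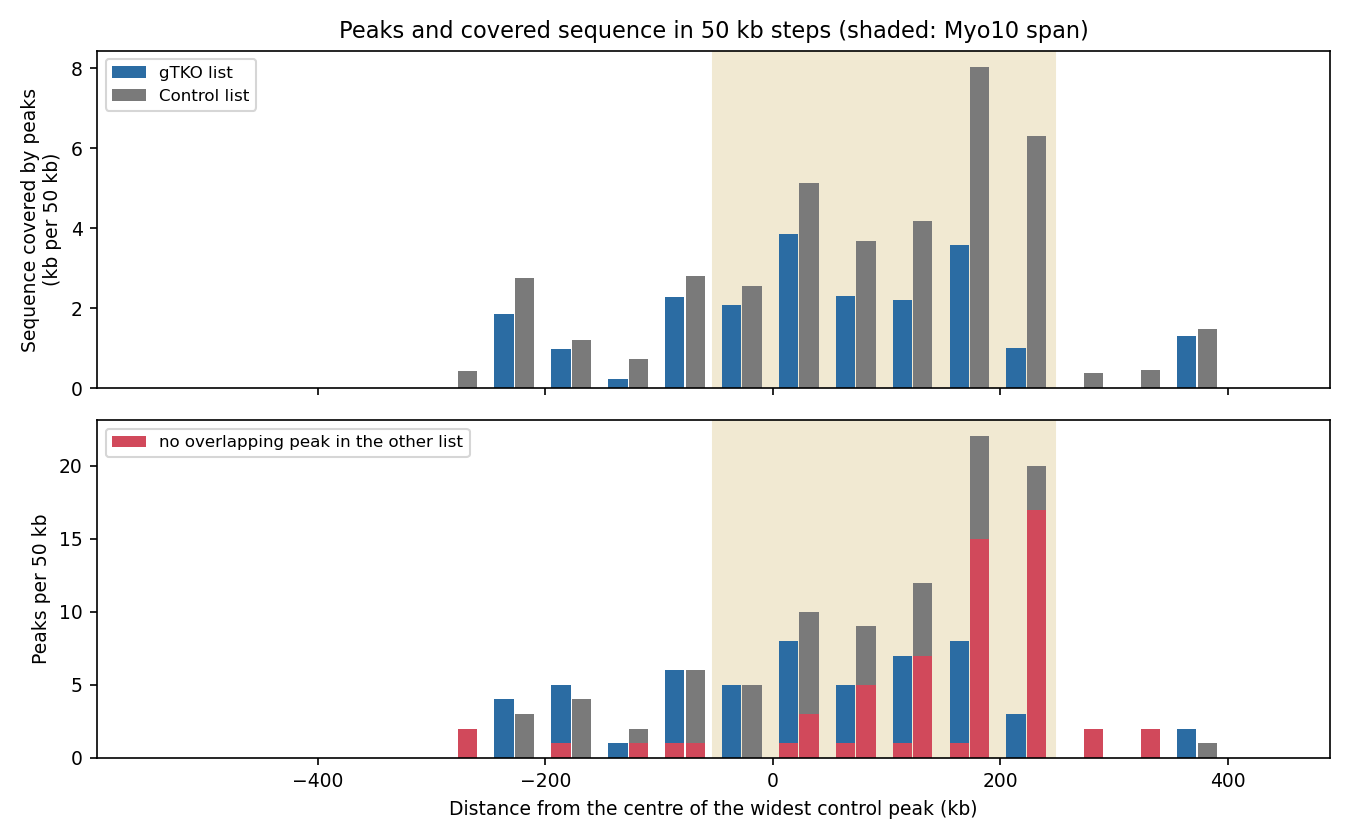
Sequence covered by peaks in kb (top) and number of peaks (bottom) in steps of 50 kb along the megabase, as distance in kb from the centre of the widest control peak, with gTKO bars left of control bars; red parts are peaks with no overlapping peak in the other list and the Myo10 span is shaded. In the last step of the span gTKO covers 16.0% of the control sequence, and in the first 81.2%, against 77.1% on all placed chromosomes. Whether the last step lies in Myo10 was not checked.

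Parts of 100 kb join these same steps and are no separate observation, and they too were chosen after the values were seen. The control-only share was higher in the parts toward the end of the span. In the first 100 kb, 3 of 15 control peaks were control-only (20.0%, 95% interval 4.33 to 48.1%), and the shares by width of all placed chromosomes would give 4.10. In the second, 12 of 21 were control-only (57.1%, 34.0 to 78.2%), against 7.60 by width (36.2%), which lies within that interval. In the third, 32 of 42 were control-only (76.2%, 60.5 to 87.9%), against 17.8 by width (42.4%). Here too the intervals take peaks as independent and are not a test. Control peaks grew narrower along these parts as well, with medians of 327.0, 252.0 and 211.0 bp. Among control peaks of at least 300 bp the share did not rise evenly, with 2 of 8, 1 of 10 and 7 of 13 control-only. Within 1-to-1 pairs the control peak was the wider in 8 of 12, 7 of 8 and 10 of 10, and the median gTKO width was 90.6, 73.4 and 71.2% of control.

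Control-only peaks were more frequent in dense stretches than among single peaks, as on all placed chromosomes. Control peaks no more than 3 kb apart were chained, which gave 5 stretches of 5 or more peaks in the megabase, all in the span and none before 25688428. These held 41 control peaks, of which 31 were control-only (75.6%), against 39.8% in such stretches on all placed chromosomes. In stretches of 2 to 4 peaks 14 of 29 were control-only (48.3%), against 28.0%, and of the control peaks that stood alone 10 of 30 (33.3%), against 23.0%. The longest stretch ran from 25755527 to 25768895 and held 1 gTKO peak covering 188 bp, against 12 control peaks covering 3296 bp, 11 of them control-only. In the stretch from 25714768 to 25722515, by contrast, 4 gTKO peaks covered 2518 bp and 9 control peaks 4034 bp. Stretches were chained from control peaks alone, so counts within them favour the control list. The stretch from 25688428 to 25698176 opened with 6 control-only peaks of 150 to 207 bp. A run of 8 control-only peaks with no shared peak between them extended from 25735340 to 25758528, and another 8 from 25779210 to 25889355, which crosses the end of the span. No gTKO peak lay within either run, which follows largely from the definition, since only a gTKO-only peak could lie in one.

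The widest control-only peak of the span measured 671 bp (25710904 to 25711574) and lay 1098 bp from the nearest gTKO peak. The next were of 513 bp (25764900 to 25765412), 441 bp (25758088 to 25758528), 437 bp (25763986 to 25764422) and 427 bp (25591464 to 25591890), at 1707 to 8459 bp from the nearest gTKO peak. The first 4 of these 5 lay in the third 100 kb of the span. Control-only peaks of the span had a median width of 193.0 bp, and control peaks with a partner 403.0 bp. Outside the span the widest control-only peaks measured 327 bp (25412322 to 25412648), 277 bp (25863261 to 25863537), 261 bp (25294233 to 25294493), 223 bp (25830367 to 25830589) and 183 bp (25889173 to 25889355). These 5 stood at 22395 to 52729 bp from the nearest gTKO peak, where gTKO peaks were also sparser, at 2.57 per 100 kb against 12.0 inside. A narrower control-only peak outside the span, of 169 bp (25499005 to 25499173), lay 5073 bp from one.

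The 6 gTKO-only peaks measured 155 to 348 bp, against a median of 274.0 bp for all gTKO peaks of the megabase. In the span they measured 348 bp (25628691 to 25629038), 227 bp (25582190 to 25582416), 219 bp (25709587 to 25709805) and 172 bp (25684065 to 25684236). The peak of 227 bp ended 2 bp before the nearest control peak, and the other 3 lay 1098 to 5165 bp from one. Outside the span they measured 175 bp (25489559 to 25489733) and 155 bp (25350146 to 25350300), both on the side before the span.

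Among other megabases, few differed as much between the lists. Of 321 megabases with at least 50 control peaks, this one included, 3 had a higher control-only share than the 55.0% found here. Those 3 were on chromosomes 4, 5 and 6, and the median of the 321 was 26.4%. The gTKO list covered a smaller percentage of the control sequence in 6 of the 321, and the median was 75.0%. On chromosome 15, 0 of the 16 such megabases had a higher control-only share and 1 had a lower gTKO coverage. Control peaks of the megabase with Myo10 were narrow among the 321 megabases, with 7 at a lower median width. Narrow peaks had a partner less often throughout the genome. The interval was chosen with earlier results of these lists known. Its ranks therefore describe the lists, were not tested, and cannot show that it stands out.

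**Figure D5:**
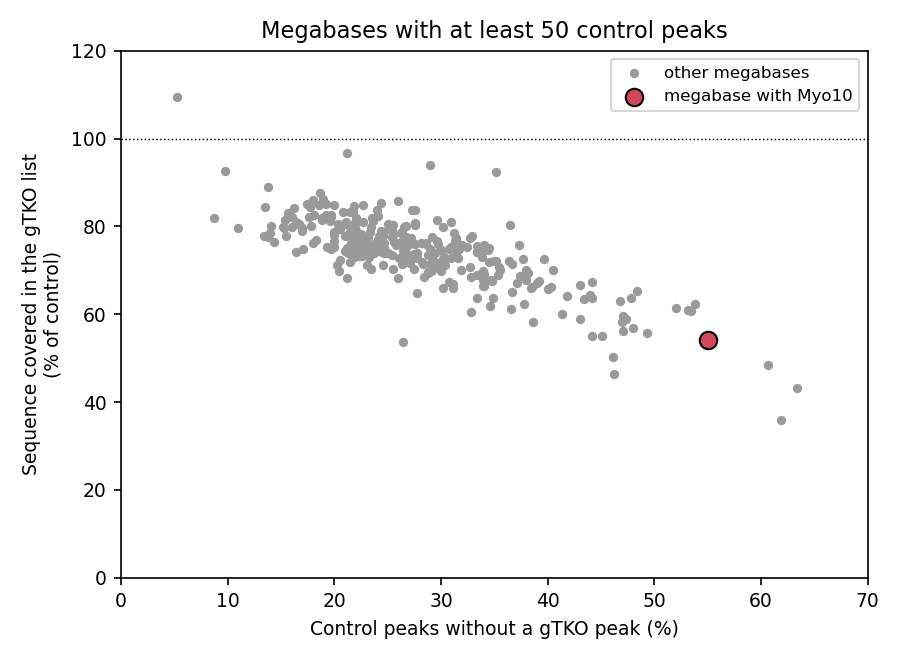
Sequence covered in the gTKO list as a percentage of control against the percentage of control peaks without a gTKO peak, for 321 megabases with at least 50 control peaks; the dotted line marks equal coverage. The megabase with Myo10 lies at 55.0% control-only peaks and 54.0% coverage, with 3 megabases farther to the right.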

How the data were processed

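The values are peak positions from 2 lists deposited by the authors (1 for gTKO, 1 for control). Promoter sequences came from RefSeq. Each deposited list has 3 columns (sequence name, start, end) and no score, fold, summit, p or q value. Per the submitters' processing notes, the genome build is mm9 and the named tools, with no role stated, include Bowtie2, Picard, MACS2 and bedtools. The filters, the threshold, the depth and any pooling of libraries remain not given in the sources used here. Both depth and threshold can change how many peaks are called.

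Starts were made 1-based. Peaks on chromosomes 1 to 19, X and Y were used, which left out 620 gTKO and 1044 control peaks. Peaks within a list did not overlap. Peaks of the 2 lists were paired where they had 1 bp or more in common. Overlap counting was checked on lists simulated from the control peaks. Peaks are named by these rules: at least 1000 bp wide in the span, the 10 widest per list, every gTKO-only peak, and the 5 widest control-only peaks inside and outside the span. Other peaks named as extremes or run limits were picked after their values were seen. The interval, members and rules were chosen with earlier results of these data known. Filopodia genes and cell type markers listed in the plan need an mm9 annotation and were not analysed here, nor were the 16 RNA-seq libraries. Alternatives were other overlap rules, width minimums, list sizes and span limits. Python 3.11.15, numpy 2.4.6, pandas 2.3.3, scipy 1.17.1 and matplotlib 3.10.9 were used.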

Additional observations from a re-analysis of the deposited data

How the results depend on the processing

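Of 42 alternative values, 40 stayed within the 95% interval of the reported share or, for covered sequence, within 1.5 times. These limits are wide, such as 17.2 to 59.3% for the control-only share outside the span, so this count is a weak check. Requiring 50% of both peaks to be covered raised the gTKO-only share to 27.8% in the megabase and 38.9% outside the span, against 11.1% for each; the cause was not tested. The control-only share of the span was 64.1% under that rule and 50.0% if a gap of up to 500 bp also counted as shared. It was 54.8% with peaks of at least 300 bp in both lists, 50.0% with the widest peaks, equally many per list genome-wide, and 56.6 and 58.1% with a narrower and a wider span. The shares for all placed chromosomes given above hold for 1 bp of overlap and peaks of all widths. They are not given for the other overlap rules, width minimum and list size, so no comparison with them was made there. With the narrower span the control-only share was 56.6% inside it and 53.2% outside, and the gTKO list covered 56.8% of the control sequence inside it and 51.1% outside. With peaks of at least 300 bp in both lists, coverage was 53.0% inside the span and 54.6% outside, and the control-only shares were 54.8 and 50.0%. With the wider span and with equally many peaks per list, coverage stayed lower inside than outside. The order of coverage inside and outside the span therefore turned with the narrower span and with the width minimum. Over its 4 alternatives the gTKO list covered 52.3 to 56.8% of the control sequence inside the span and 51.1 to 69.5% outside it. No paired analysis was possible because the 3 libraries of a genotype share a single list, and leaving out a replicate was likewise not possible. The depth of the libraries is unknown.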

Other observations

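The megabases beside the one with Myo10 were sparse. From 24000000 to 25000000 on chromosome 15 there was 1 gTKO and 1 control peak, and they overlapped. The next megabase past the interval, from 26000000, held 9 gTKO peaks and 9 control peaks, of which 2 were gTKO-only and 3 control-only. The one from 27000000 held 40 gTKO and 44 control peaks, and the gTKO list covered 86.4% of the control sequence. Within the interval itself, no peak of either list lay before 25294016, and the gTKO list had no peak between 25777637 and 25913674.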
